A study of Mus musculus with 12 samples.

Results

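Tet2 knockdown and Ezh2-null progenitor cells were compared with each other directly, single mutant against single mutant, in LSK cells and in granulocyte-macrophage progenitors (GMPs). The comparison takes the arrays titled as the single mutants of either gene, which are 4 of the 12 arrays of the series: 1 Tet2 knockdown and 1 Ezh2-null array for each cell type. LSK cells (no lineage markers, but Sca-1 and c-Kit) are the bone marrow fraction that holds stem and multipotent progenitor cells, and GMPs are the committed precursors of granulocytes and monocytes. Total RNA of sorted cells was labelled with Cy3 and hybridised to one-colour Agilent arrays.

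The cells came from the marrow of C57BL/6 recipients in which transplanted fetal liver cells had rebuilt the blood. One single mutant carried Tet2KD/KD, a homozygous knockdown allele that leaves some Tet2 RNA, and the other was Ezh2-/-. The wild-type and the Tet2KD/KD Ezh2-/- double mutant of each cell type lay on the same slide as the single mutants. These 4 further arrays helped to estimate the spread and are described beside the single mutants, but no value of theirs enters a difference between Tet2KD/KD and Ezh2-/- cells. How the Ezh2 deletion was brought about, how many mice gave each RNA, and whether LSK cells and GMPs of a genotype came from the same mice are not given in the sources used here.

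Tet2 is a dioxygenase that oxidises 5-methylcytosine in DNA and so opens a route to demethylation; its mutation is frequent in human myeloid neoplasms. Ezh2 is the methyltransferase of Polycomb repressive complex 2 (PRC2), which places the repressive methyl mark on lysine 27 of histone H3, and inactivating mutations occur in the same diseases. Tet2 thus acts on DNA and Ezh2 on histones, and both shape which genes a progenitor keeps silent. Setting the single mutants against each other asks which transcripts separate the loss of one activity from the reduction of the other.

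Each array was scaled to the 75th percentile of its own signals; a value of 0 on the log2 scale is that percentile, and a difference is Ezh2-null minus Tet2 knockdown on the log2 scale, where 1 is a 2-fold difference. Every difference was taken within a cell type. The fitted difference of a gene is the mean of its LSK and GMP differences, and its standard error (SE) comes from limma over the 8 arrays without disease. With 1 array per cell type and genotype this SE measures how far genotype differences varied between cell types, not the spread between mice. The 75th percentile of the processed signal lay between 214.9 and 275.3 on the 4 arrays, 47.9 to 50.3% of gene spots were well above background, and the number of arrays limits the precision. All 10 LSK markers were above background on both LSK arrays, and the summed linear signal of the 10 GMP markers, relative to the 75th percentile, was 4532.6 and 4324.8 in GMPs against 467.0 and 444.9 in LSK cells. The Y-linked gene Eif2s3y read between 1.48 and 2.68 on the 4 single mutant arrays and between -6.38 and -6.20 on the wild-type and double mutant arrays, so the single mutants were matched for this signal and differed in it from the other genotypes.

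Tet2 itself read -1.61 in LSK cells and -0.64 in GMPs of the knockdown, and 0.12 and 1.51 in Ezh2-null cells. The knockdown array was the lower one in both cell types, and the knockdown and Ezh2-null values did not overlap. Wild-type cells (0.44 and 1.57) lay beside the Ezh2-null cells and double mutant cells (-0.79 and -1.01) beside the knockdown. The difference was 1.93 (SE 0.38), which did not pass the threshold in limma (adjusted p = 0.225). Ezh2 read 2.50 and 3.40 in the knockdown and 2.82 and 3.35 in Ezh2-null cells, a difference of 0.14 (SE 0.17, limma adjusted p = 0.822). Whether the Ezh2 probe lies inside the deletion is not given in the sources used here, and its signal therefore checks nothing about that genotype.

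Of the 12921 genes tested, 1 passed the limma threshold of 0.05 (0.00774%), and it was higher in Ezh2-null cells. This was Ppm1e, which encodes a protein phosphatase of the PP2C family. Ppm1e read -3.91 in LSK cells and -4.16 in GMPs with the Tet2 knockdown, and -0.78 and -0.77 in Ezh2-null cells. Both Ezh2-null arrays were far above both knockdown arrays, and the gap was alike in LSK cells (3.13) and GMPs (3.39). The difference was 3.26 (SE 0.18, adjusted p = 0.0254). Since the probe was not well above background on either knockdown array, the size is given as at least 9.60-fold. Here "at least" takes, for a dim array, the lowest signal among probes well above background, or the probe's own where that is higher. For Ppm1e it is the measured gap itself. Such bounds belong to the main processing and are no limit under another background correction: with normexp background correction the difference of Ppm1e was 1.33. Wild-type cells read -3.04 and -3.54 and double mutant cells -1.002 and -1.03, so the double mutant lay with the Ezh2-null cells.

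Ppm1e met the filter for testing only by its 2 Ezh2-null arrays, the group in which it was high. The filter was thus not independent of the difference tested. Under the stricter filter, which all 4 arrays had to meet, Ppm1e was not among the genes tested. The call of Ppm1e was lost in limma on the 4 arrays alone (adjusted p = 0.436) and with no filter (0.0904). The call was lost too with probes and filter taken over the 12 arrays (0.0505). It was also lost without any 1 of the single or double mutant arrays (adjusted p from 0.0707 to 0.239). No gene passed as lower, 1250 genes had an unadjusted limma p under 0.05 (9.67%) against the 646.05 that 5% of the genes make, and 528 did with all 12 arrays in the fit. An exact permutation test over the 2 pairs could not go below 0.5 for any gene.

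**Figure D1:**
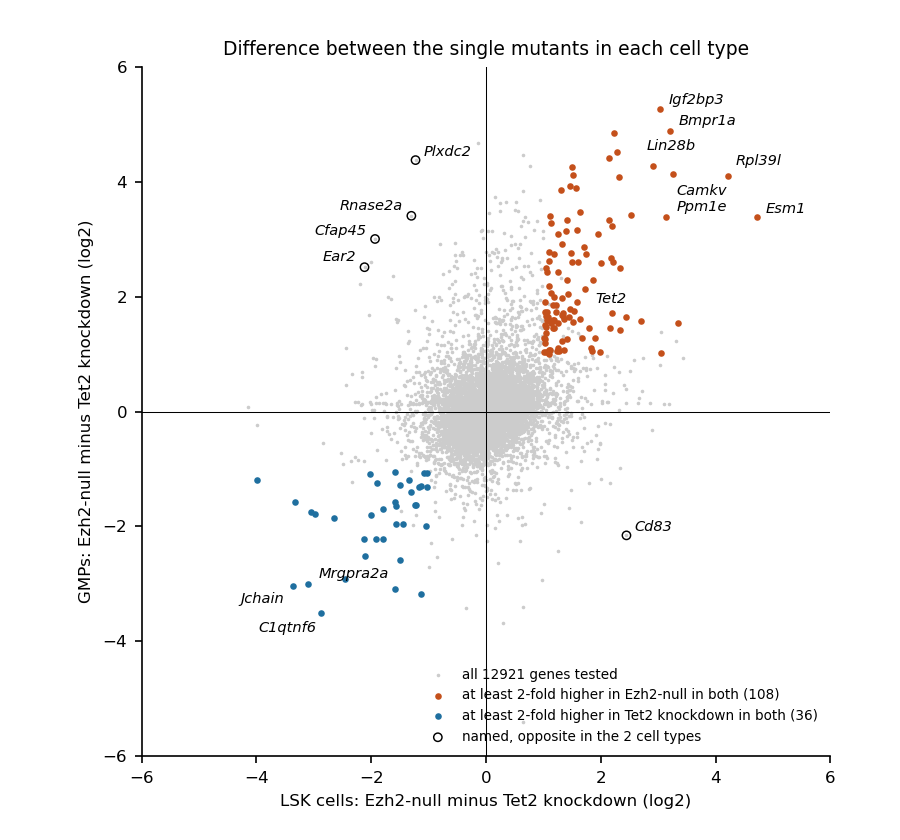
Difference between Ezh2-null and Tet2 knockdown cells in LSK cells (x axis, log2) and in GMPs (y axis, log2) for the 12921 genes tested, 1 point per gene. The 108 orange genes are at least 2-fold higher in Ezh2-null cells in both cell types, the 36 blue genes at least 2-fold lower, and the 5 ringed genes are named genes with opposite directions.

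By size alone, 108 genes were at least 2-fold higher in Ezh2-null cells in both cell types (0.836% of the genes tested) and 36 at least 2-fold lower (0.279%), each with the brighter array well above background in both cell types. These 144 genes (1.11%) are a description without a test. The counts moved with the background correction and the filter: 23 and 6 genes with normexp background correction, and 49 and 20 among probes well above background on all 4 arrays. Just inside the 2-fold limit lay Reck (1.104 in LSK cells and 1.01 in GMPs) and Zfp318 (1.01 and 1.28), and just outside it Efemp2 (1.00 in LSK cells, 3.15 in GMPs) and Mpped2 (1.00 and 3.02).

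Bmpr1a, a type I receptor for bone morphogenetic proteins, was among the genes with the largest gaps. It read -6.15 in LSK cells and -6.31 in GMPs of the knockdown, and -2.94 and -1.43 in Ezh2-null cells. Neither knockdown array was well above background, while both Ezh2-null arrays were. The difference was 4.05 (SE 0.42, limma adjusted p = 0.146), at least 2.15-fold in LSK cells and at least 6.80-fold in GMPs. Wild-type cells (-6.20 and -6.27) were at the level of the knockdown, and double mutant cells (-1.78 and -0.91) were above the Ezh2-null cells in both cell types. With limma's trend and robust options Bmpr1a was 1 of 12 genes that passed (0.0929% of those tested, adjusted p = 0.0403), and with normexp the difference was 0.80.

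Promoter sequence is shown for a few of these genes, to count the dinucleotide CG in it. The 250 bases before the start of 4 of them are printed here from RefSeq (GRCm38.p6), 5' to 3' on the gene's strand, with the CG dinucleotides, the sites at which Tet2's substrate occurs, in capitals. Ppm1e and Bmpr1a were chosen as the gene that passed and the largest gap in BMP signalling, Esm1 and Jchain as the genes with the largest LSK gaps among those named as higher and as lower in both cell types. The windows lie at chr11:87358995-87359244 (minus strand, Ppm1e), chr14:34502547-34502796 (minus strand, Bmpr1a), chr13:113209409-113209658 (plus strand, Esm1) and chr5:88527898-88528147 (minus strand, Jchain), upstream of the annotated first exon.
Ppm1e: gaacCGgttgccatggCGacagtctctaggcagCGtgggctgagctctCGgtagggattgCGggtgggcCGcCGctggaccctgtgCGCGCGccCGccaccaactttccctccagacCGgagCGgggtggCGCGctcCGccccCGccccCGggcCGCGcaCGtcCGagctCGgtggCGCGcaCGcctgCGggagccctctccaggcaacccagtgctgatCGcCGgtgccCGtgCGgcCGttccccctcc
Bmpr1a: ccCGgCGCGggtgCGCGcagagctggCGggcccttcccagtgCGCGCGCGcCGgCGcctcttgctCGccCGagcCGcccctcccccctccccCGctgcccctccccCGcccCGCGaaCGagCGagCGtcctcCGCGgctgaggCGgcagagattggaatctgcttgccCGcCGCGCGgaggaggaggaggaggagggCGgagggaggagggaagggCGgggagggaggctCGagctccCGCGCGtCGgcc
Esm1: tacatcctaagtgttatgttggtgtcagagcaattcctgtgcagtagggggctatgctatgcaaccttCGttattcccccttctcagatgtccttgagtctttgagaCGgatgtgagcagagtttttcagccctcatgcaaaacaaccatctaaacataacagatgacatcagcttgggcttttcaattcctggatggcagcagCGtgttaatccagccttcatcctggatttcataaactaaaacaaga
Jchain: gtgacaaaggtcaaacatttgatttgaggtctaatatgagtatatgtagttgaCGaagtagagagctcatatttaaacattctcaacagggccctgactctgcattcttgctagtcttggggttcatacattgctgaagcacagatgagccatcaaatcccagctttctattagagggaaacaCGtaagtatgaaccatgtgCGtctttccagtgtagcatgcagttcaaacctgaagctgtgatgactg
The CG letters occurred 32 times in the Ppm1e window, 36 times in Bmpr1a, and 3 times each in Esm1 and Jchain, so the 3 higher genes printed did not share a count. A CG reads the same on both strands, and 94.6% of all RefSeq promoter windows of 300 bases hold at least 1. Of the 108 higher genes 88 matched a window, with a median of 17.5 CG per 300 bases against 20 over the 10366 genes tested that matched. Fewer of the 36 lower genes matched (69.4%, against 80.2% of all genes tested), so the comparison covers them less fully and nothing is drawn from it. The 25 lower genes that matched had a median of 6. At least 15 CG were held by 20% of these 25, 66.4% of all matched genes and 59.1% of the matched higher genes. DNA methylation was not measured on these arrays, and the letters alone say nothing about it.

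Among the other genes higher in Ezh2-null cells in both cell types were several best known from other tissues. Esm1, which encodes the secreted proteoglycan endocan of endothelial cells, read -5.07 and -5.24 in LSK cells and GMPs of the knockdown and -0.35 and -1.86 in Ezh2-null cells. Camkv, a kinase-like gene of neurons, read -3.15 and -5.69 against 0.10 and -1.55. Ncam1, the neural cell adhesion molecule, read -6.01 and -1.45 against -3.49 and 1.98. For each of these 3 genes both Ezh2-null arrays were above the matched knockdown array. Double mutant cells lay nearer to the Ezh2-null than to the knockdown array in both cell types, though only slightly for Camkv in LSK cells (-1.45). Wild-type cells lay nearer the knockdown for Camkv (-3.06 and -5.66). For Ncam1 wild-type cells (-5.04 and 0.07) lay between the single mutants, only slightly nearer the knockdown. For Esm1 wild-type cells read -3.64 in LSK cells, nearer the knockdown, and -3.18 in GMPs, nearer the Ezh2-null array. Esm1 was at least 8.07-fold higher, since the knockdown was not above background in either cell type. Camkv was at least 6.24-fold higher in GMPs and Ncam1 at least 1.47-fold in LSK cells. With normexp the difference of Esm1 was 1.33. Their differences of 4.05 (SE 0.64), 3.69 (SE 0.38) and 2.97 (SE 0.24) did not pass in limma (adjusted p = 0.185, 0.146 and 0.126). Camkv did pass with normexp (adjusted p = 0.0262, 1 of 31 genes or 0.24%), with signals floored at the background limit (0.0146) and with limma's trend and robust options (0.0328), and Ncam1 with the last of these (0.0160). The probes of Ncam1 disagreed in size, and the mean of all its probes gave 1.84.

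Rpl39l, a copy of a ribosomal protein gene used mainly in the testis, had another arrangement. It read -4.90 and -6.08 in LSK cells and GMPs of the knockdown and -0.69 and -1.96 in Ezh2-null cells, at least 10.2-fold and 4.68-fold higher. Wild-type cells (-5.93 and -3.07) and double mutant cells (-6.17 and -5.98) were lower, so the Ezh2-null array was the highest of the 4 genotypes in both cell types. The potassium channel gene Kcnj10 was dim throughout, with -6.25 and -6.39 in the knockdown and -3.91 and -3.88 in Ezh2-null cells, at least 1.17-fold apart. Cep112, which encodes a centrosomal protein, read -4.13 and -6.14 against -1.82 and -2.05, at least 4.55-fold. Wild-type cells lay nearer the Ezh2-null array in GMPs for Kcnj10 (-3.86) and in LSK cells for Cep112 (-2.57). In the other cell type they lay nearer the knockdown (-5.44 for Kcnj10 and -5.43 for Cep112). None of these 3 passed in limma (adjusted p = 0.306, 0.205 and 0.212).

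**Figure D2:**
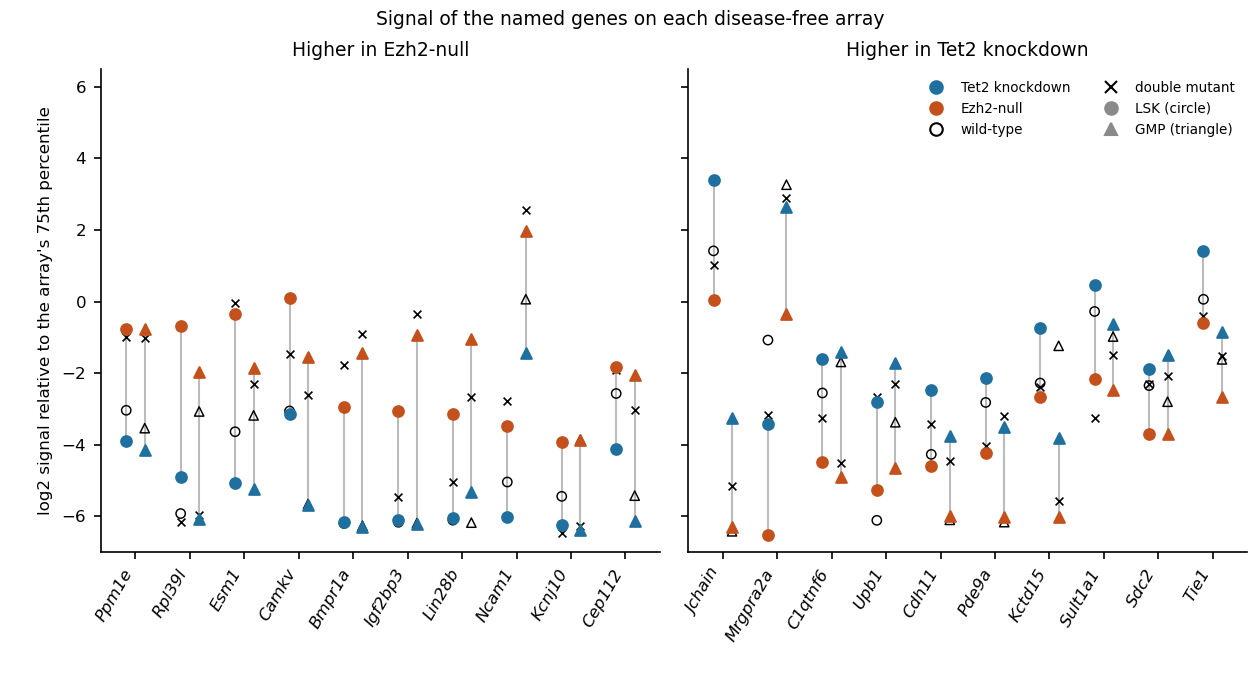
Log2 signal relative to the array's 75th percentile (y axis) of the genes named as higher in Ezh2-null cells (left) and higher in Tet2 knockdown cells (right), with LSK cells as circles and GMPs as triangles. Grey lines join the single mutants of a cell type; Ppm1e runs from -3.91 to -0.78 in LSK cells and from -4.16 to -0.77 in GMPs, and the wild-type (open) and double mutant (cross) arrays are shown for reference.

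On the other side, Jchain, the chain that links IgM and IgA into polymers, was higher with the Tet2 knockdown. It read 3.41 in LSK cells and -3.25 in GMPs of the knockdown, and 0.04 and -6.29 in Ezh2-null cells. The Ezh2-null GMP array was not above background, so the GMP gap was at least 1.72-fold. The knockdown array was the highest of the 4 genotypes without disease in both cell types; wild-type cells read 1.42 and -6.42 and double mutant cells 1.01 and -5.16. The difference was -3.20 (SE 0.40, limma adjusted p = 0.155, and 0.0473 without the wild-type array of either cell type).

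Mrgpra2a, a Mas-related G protein-coupled receptor gene with near-identical copies that its probe may not separate, showed the reverse arrangement. It read -3.43 and 2.66 in LSK cells and GMPs of the knockdown and -6.52 and -0.35 in Ezh2-null cells. The Ezh2-null LSK array was not above background, so the LSK gap was at least 1.74-fold. Here the Ezh2-null array was the lowest in both cell types, below wild-type (-1.08 and 3.27) and double mutant cells (-3.18 and 2.89). The difference was -3.05 (SE 0.46, limma adjusted p = 0.176, and 0.0361 without the wild-type array of either cell type).

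Several genes of cell surface and matrix were among the lower ones. C1qtnf6, which encodes a secreted protein related to complement C1q, read -1.61 and -1.40 in LSK cells and GMPs of the knockdown and -4.48 and -4.91 in Ezh2-null cells. Cdh11, a cadherin of mesenchymal cells, read -2.47 and -3.77 against -4.59 and -5.98. Sdc2, a heparan sulphate proteoglycan, read -1.89 and -1.49 against -3.69 and -3.71. In all 3 genes both knockdown arrays were above the matched Ezh2-null array, and C1qtnf6 was at least 6.17-fold and Cdh11 at least 2.02-fold apart, since neither was above background in Ezh2-null cells. The endothelial receptor kinase gene Tie1 read 1.40 and -0.86 against -0.60 and -2.66, with the knockdown again the highest of the 4 genotypes in both cell types. These genes did not pass in limma (adjusted p = 0.176, 0.140, 0.155 and 0.176 in that order). C1qtnf6 passed with normexp (limma adjusted p = 0.0439), where its difference was -1.05 in place of -3.19. The mean of all probes of Cdh11 gave a difference of -1.10, against -2.17 for its brightest probe.

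Enzyme genes made up most of the other lower genes named. Upb1, the last enzyme of pyrimidine breakdown, read -2.81 and -1.72 in LSK cells and GMPs of the knockdown against -5.25 and -4.64 in Ezh2-null cells. Double mutant cells (-2.67 and -2.29) were at the level of the knockdown, and wild-type cells (-6.12 and -3.37) were lower. Pde9a, a cyclic GMP phosphodiesterase, had a difference of -2.31 (SE 0.88), the sulphotransferase gene Sult1a1 of -2.25 (SE 0.66), and Kctd15 of -2.07 (SE 1.08), with limma adjusted p from 0.381 to 0.592. Neither Ezh2-null array was above background for Upb1 or Pde9a, which were at least 3.65-fold and 2.48-fold apart. The pairs of Kctd15 differed by -1.92 in LSK cells and -2.22 in GMPs. Kctd15 was not above background in Ezh2-null GMPs, so its gap there was at least 1.17-fold. Its fitted difference ran from -2.88 without the Ezh2-null LSK array to -1.26 without the Ezh2-null GMP array. Those fits fill in the missing array from the cell type difference of the other genotypes, wild-type and double mutant among them.

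The wild-type and double mutant arrays, whose values the main differences did not use, were then placed on the side of one or the other single mutant. The midpoint between the single mutants in each cell type decided the side. Of the 108 genes higher in Ezh2-null cells, 42 (38.9%) had wild-type on the knockdown's side and the double mutant on the Ezh2-null side in both cell types, against 3.95% of all genes tested. The opposite arrangement, in which the double mutant lay with the knockdown and wild-type with the Ezh2-null cells, was found for 2 of the 108 (Tet2 is one of them) and for 1.99% of all genes. In 6 genes both lay with the Ezh2-null cells, in 3 both lay with the knockdown, and in 55 the sides differed between cell types. Some of the 108, Ppm1e and Bmpr1a among them, met the filter for testing only by their Ezh2-null arrays. With all 4 arrays required above background, 22 of 49 (44.9%) had the first arrangement, against 3.28% of the genes then tested. In GMPs the double mutant was nearer the Ezh2-null array for 93 of the 108 genes (86.1%), against 53.7% of all genes tested. In LSK cells it was for 74 (68.5%), near the 63.9% of all genes.

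The 36 genes lower in Ezh2-null cells were spread over all arrangements. In 8 (22.2%) wild-type lay with the knockdown and the double mutant with the Ezh2-null cells, against 3.95% of all genes. In 4 (11.1%) the reverse held, against 1.99%. In 7 (19.4%) the knockdown stood apart from the other 3 genotypes, against 16.2% of all genes. In 2 the Ezh2-null cells stood apart, and in 15 the sides differed between cell types. The double mutant was nearer the Ezh2-null array for 27 of the 36 in LSK cells (75%) and for 19 in GMPs (52.8%), the latter near the share of all genes. Wild-type and double mutant cells also differed from both single mutants in Y-linked signal, whose part in these sides was not tested, and genes with small differences change sides easily, so the shares over all genes are a background and not a null.

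**Figure D3:**
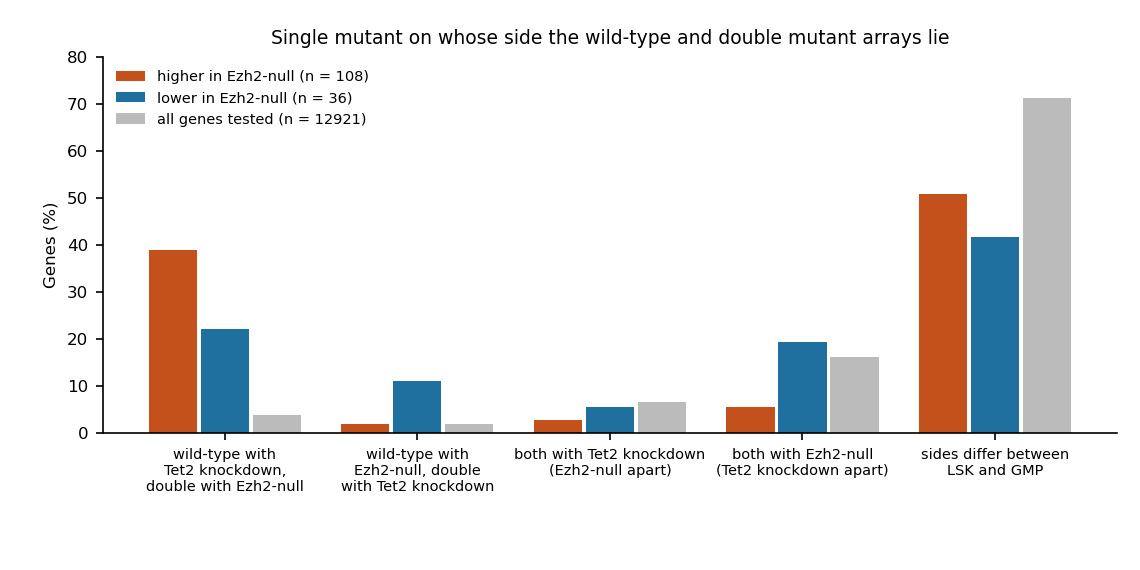
Share of genes (y axis, percent) by the single mutant on whose side the wild-type and double mutant arrays lie in both cell types, for the 108 genes higher in Ezh2-null cells, the 36 lower ones and all 12921 genes tested. The first group of bars stands at 38.9, 22.2 and 3.95%, and the fourth, in which the knockdown stands apart, at 5.56, 19.4 and 16.2%.

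Genes of the DNA methylation machinery other than Tet2 and Dnmt3l differed by less than 2-fold between the single mutants in each cell type. Of 18 tested genes of this list 14 were higher and 4 lower in Ezh2-null cells, with a median difference of 0.11 beside -0.03 over all genes tested, of which 45.7% were above 0. None passed. Tdg, the glycosylase that removes oxidised cytosines downstream of Tet enzymes, had a difference of 0.41 (SE 0.15), the methyl-CpG reader gene Zbtb38 of 0.37 (SE 0.16) and the methyltransferase gene Dnmt3a of 0.37 (SE 0.19). Dnmt3l, the partner of the DNA methyltransferases without catalytic activity of its own, had the widest gap after Tet2, with 1.16 (SE 0.58, limma adjusted p = 0.583). It read -3.35 and -3.11 in LSK cells and GMPs of the knockdown and -2.99 and -1.16 in Ezh2-null cells. The gap lay in GMPs, where wild-type (-0.85) and double mutant cells (-1.02) were beside the Ezh2-null array. Tet3 read -1.13 and -1.15 in LSK cells and GMPs of the knockdown and -1.37 and -0.89 in Ezh2-null cells, a difference of 0.01 (SE 0.18), with the cell types on opposite sides of 0.

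The PRC2 genes were close as well, and the clearest gaps in Polycomb genes lay in PRC1, the complex that binds the PRC2 mark and ubiquitinates histone H2A. Among 11 PRC2 genes 7 were higher and 4 lower, with a median of 0.03; the core subunit gene Suz12 had 0.59 (SE 0.24) and the DNA-binding cofactor gene Jarid2 0.39 (SE 0.15). The accessory subunit genes Aebp2 and Phf1 had 0.44 (SE 0.20) and -0.35 (SE 0.20). Among 19 PRC1 genes 11 were higher and 8 lower, with a median of 0.04. Bmi1, a core PRC1 subunit, read 1.98 in LSK cells and 2.16 in GMPs of the knockdown and 3.17 and 3.75 in Ezh2-null cells. Both Ezh2-null arrays were above both knockdown arrays; wild-type cells read 1.92 and 2.08 and double mutant cells 3.10 and 3.72. Its difference of 1.39 (SE 0.19) did not pass in limma (adjusted p = 0.155), but did with normexp (0.0232) and with the trend and robust options (0.0403). The chromodomain gene Cbx8, whose protein reads the PRC2 mark in PRC1, was lower by 0.79 and 0.99 on the log2 scale in LSK cells and GMPs (difference -0.89, SE 0.23), Cbx2 had -0.41 (SE 0.16), and Rybp, a subunit of the variant PRC1 complexes, 0.48 (SE 0.16). None of the PRC2 or PRC1 genes passed.

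In BMP and TGF-beta signalling Bmpr1a was the 1 gene at least 2-fold apart in both cell types. Of 30 genes tested among 43 listed, 17 were higher and 13 lower, with a median of 0.11 and none past the threshold. Of the other receptors, Tgfbr1 had a difference of 0.37 (SE 0.15), Tgfbr3 of 1.01 (SE 0.41; 0.22 in LSK cells and 1.80 in GMPs) and the type II receptor Bmpr2 of 0.49 (SE 0.27). Smad4, the shared transducer, had 0.12, and the BMP target Id1 -0.31 (SE 0.18). Id1 read 3.99 and 3.21 in the knockdown against 3.63 and 2.94 in Ezh2-null cells, the other way from Bmpr1a. Thbs1, whose protein activates latent TGF-beta, was at least 1.79-fold higher in Ezh2-null cells.

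Genes of fetal growth programmes were higher in Ezh2-null cells in part. Lin28b, which blocks the maturation of let-7 microRNAs, read -6.06 and -5.31 in LSK cells and GMPs of the knockdown and -3.15 and -1.04 in Ezh2-null cells. Igf2bp3, an RNA-binding protein of fetal tissue, read -6.10 and -6.23 against -3.06 and -0.95. Hmga2, a chromatin protein of fetal stem cells and a let-7 target, read -0.11 and -1.74 against 1.69 and -0.28. The Ezh2-null array was the higher one in each of these 6 pairs, and the gap of Lin28b and Igf2bp3 was at least 4.06-fold and 4.33-fold over both cell types, since the knockdown was not above background. The bound for Lin28b is of its brightest probe; its probes disagreed, and the mean of all of them gave a difference of 1.79 in place of 3.59. In double mutant LSK cells Lin28b (-5.03) and Igf2bp3 (-5.47) were near the knockdown, while Hmga2 (2.05) was near the Ezh2-null cells. In double mutant GMPs Lin28b (-2.66), Igf2bp3 (-0.34) and Hmga2 (-0.72) were all nearer the Ezh2-null array. Wild-type cells lay on the knockdown's side for these genes in both cell types. Hmga2 read -3.99 in wild-type GMPs, well below the knockdown. Over the 11 tested genes of this list 8 were higher and 3 lower, with a median of 0.23; Lin28a, the paralogue of Lin28b, had -0.37 (SE 0.15). None passed in limma (adjusted p = 0.197, 0.392 and 0.262 for Lin28b, Igf2bp3 and Hmga2).

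HoxA genes were on the higher side in Ezh2-null cells and HoxB genes mostly on the lower. All 8 tested HoxA genes were higher in Ezh2-null cells, with a median of 0.22 in LSK cells and 0.98 in GMPs. Hoxa10 read -0.02 and 0.04 in knockdown and Ezh2-null LSK cells, and -6.14 and -2.68 in GMPs. Its gap thus lay in GMPs, where the double mutant (-2.96) was beside the Ezh2-null array and wild-type (-6.10) beside the knockdown. Hoxa9, the HoxA gene most tied to leukaemia, read -2.29 in knockdown and -1.44 in Ezh2-null GMPs, with wild-type at -1.21 and the double mutant at -2.07, so here the double mutant lay with the knockdown; Hoxa5 and Hoxa7 had this second arrangement in both cell types as well. Hoxa3 read -0.42 and -3.46 in LSK cells and GMPs of the knockdown and 0.22 and -2.49 in Ezh2-null cells, a difference of 0.80 (SE 0.19), and no gene of the list passed (limma adjusted p = 0.306 for Hoxa3).

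Of 5 HoxB genes tested 4 were lower, with a median of -2.01 in LSK cells and -0.11 in GMPs. Hoxb2 read 0.40 in LSK cells and -3.25 in GMPs of the knockdown and -1.62 and -4.34 in Ezh2-null cells. Wild-type cells (0.10 and -2.22) lay with the knockdown and double mutant cells (-1.95 and -4.87) with the Ezh2-null cells. Hoxb5 and Hoxb6 had LSK differences of -2.01 and -2.13. Among the cofactors of Hox proteins Pbx3 read 0.09 and -1.07 in the knockdown against 1.22 and 1.00 in Ezh2-null cells (difference 1.60, SE 0.25), and Meis1 5.42 and 1.98 against 4.94 and 1.80 (-0.33, SE 0.16). Of 40 listed developmental transcription factors, classical targets of Polycomb, 9 were tested and all 9 were lower in Ezh2-null cells, with a median of -0.46 and Hlx at -0.46 (SE 0.15). No HoxB, cofactor or developmental gene passed, and Pbx3 did with normexp (adjusted p = 0.0363).

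A list of genes found to differ with Ezh2 loss in an earlier comparison of these same arrays is no independent evidence of its direction. Of its 13 tested members 10 were at least 2-fold higher and 3 at least 2-fold lower in both cell types, Ppm1e being the call. Cenpv, a centromere protein gene, read 3.23 and 3.64 in LSK cells and GMPs of the knockdown and 4.76 and 5.38 in Ezh2-null cells. The desmosome gene Dsp was at least 6.56-fold higher, and the scavenger receptor gene Scarf2 had -1.76 (SE 0.17) and the complement protease gene C1rb -1.75 (SE 0.16).

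**Figure D4:**
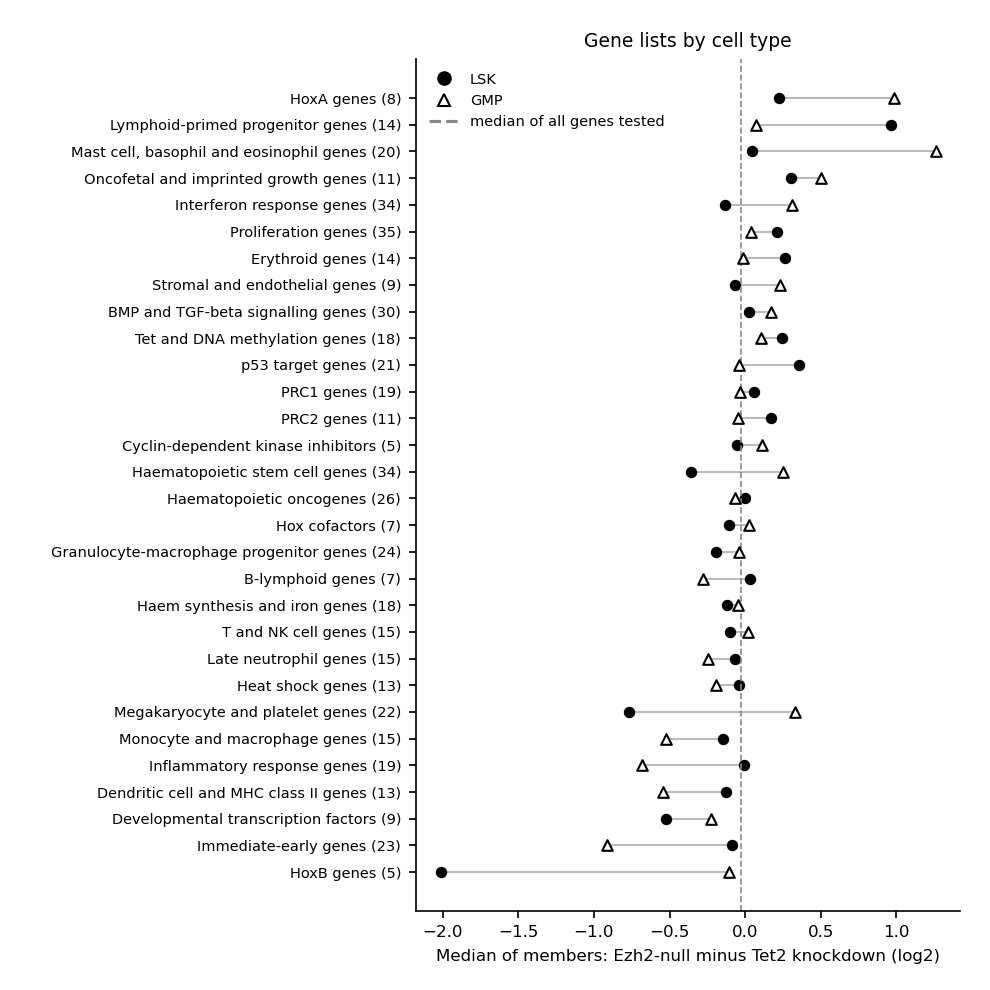
Median difference of the tested members of each gene list apart from the sort marker lists, the sex-linked genes and the list chosen on these arrays (x axis, log2, Ezh2-null minus Tet2 knockdown) in LSK cells (filled circles) and GMPs (open triangles), with the number of tested genes in brackets. HoxB genes lie furthest to the left in LSK cells (-2.01) and mast cell, basophil and eosinophil genes furthest to the right in GMPs (1.26) among the lists shown; the dashed line is the median of all genes tested (-0.03).

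Genes of lymphoid priming, the earliest step towards B and T cells, were higher in Ezh2-null LSK cells. Of 14 lymphoid-primed progenitor genes tested, 13 were higher in Ezh2-null LSK cells, 7 of them by at least 2-fold, against 44.3 and 2.83% of all genes tested. Dntt, the DNA polymerase of antigen receptor rearrangement, read 7.32 and -2.68 in LSK cells and GMPs of the knockdown and 8.83 and -1.92 in Ezh2-null cells. The chemokine receptor gene Ccr9 read -2.79 and -5.54 against 0.51 and -4.30. Il7r, the receptor for the main lymphoid growth factor interleukin-7, read -2.71 in knockdown and -0.88 in Ezh2-null LSK cells, and was at background in GMPs. Wild-type LSK cells were beside the knockdown for all 3 genes (7.43, -2.92 and -2.82), and double mutant cells nearer the Ezh2-null array (8.36, -0.56 and -1.02). The summed linear signal of the list, relative to the 75th percentile, was 323.3 in knockdown and 687.3 in Ezh2-null LSK cells. Dntt was the largest part of both LSK sums, and their gap lay mostly in Dntt. In GMPs the sums were 91.6 and 87.6. The median difference of the list was 0.97 in LSK cells and 0.07 in GMPs. No member passed (Dntt 1.14, SE 0.23, limma adjusted p = 0.225), and in RNA of sorted populations more cells of a kind and more RNA per cell cannot be told apart. Of the 10 LSK markers, 2 were higher in Ezh2-null LSK cells and 2 at least 2-fold lower (Procr, with -1.38, and Slamf1, with -1.06), with a median of -0.40 and a summed signal of 453.6 in the knockdown and 430.2 in Ezh2-null LSK cells. The part of this shift in the LSK differences of the lymphoid, megakaryocyte and stem cell genes was not tested.

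The MHC class II genes H2-Aa, Cd74 and H2-Eb1 lay on the other side in LSK cells. H2-Aa, an MHC class II chain, read 1.76 in LSK cells and -4.82 in GMPs of the knockdown and -0.58 and -6.03 in Ezh2-null cells. Cd74, the invariant chain that escorts MHC class II, read 2.95 and -2.79 against 0.67 and -3.58, and H2-Eb1 4.82 and -2.45 against 2.48 and -3.31. In LSK cells the knockdown array was the highest of the 4 genotypes for these 3 genes, above wild-type (-0.24, 0.87 and 3.14) and double mutant cells (0.12, 1.34 and 3.21). Of 13 dendritic cell and MHC class II genes 11 were lower in Ezh2-null cells, with a median of -0.42 (-0.12 in LSK cells and -0.55 in GMPs), and 4 were at least 2-fold lower in LSK cells, where 2% of all genes were. None passed (adjusted p from 0.310 for Cd74 to 0.376 for H2-Eb1).

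Megakaryocyte and platelet genes were lower in Ezh2-null LSK cells but not in GMPs. Of 22 tested, 2 were higher in LSK cells and 9 at least 2-fold lower, against 44.3 and 2% of all genes tested. The LSK median was -0.76. In GMPs 16 were higher, against 49.1% of all genes, and the median was 0.33. On the knockdown and Ezh2-null GMP arrays 15 and 18 of the 22 were above background. The integrin gene Itga2b (CD41) read 1.42 and 0.01 in knockdown and Ezh2-null LSK cells, and the platelet glycoprotein gene Gp5 0.08 and -1.67. Wild-type LSK cells (1.12 and -0.44) were near the knockdown, and double mutant LSK cells (0.04 and -1.62) near the Ezh2-null cells. The summed signal of the list in LSK cells was 206.2 in the knockdown and 151.4 in Ezh2-null cells. Of 34 haematopoietic stem cell genes 9 were higher in Ezh2-null LSK cells (median -0.36) and 26 in GMPs (median 0.25), with Esam at -0.95 (SE 0.25). On the knockdown and Ezh2-null GMP arrays 21 and 24 of these 34 were above background. None passed in either list.

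Mast cell, basophil and eosinophil genes were higher in Ezh2-null than in knockdown GMPs. Of 20 tested, 17 were higher in Ezh2-null GMPs, 12 of them by at least 2-fold, against 49.1 and 3.44% of all genes tested, with a median of 1.26; in LSK cells 10 were higher, with a median of 0.05. The eosinophil ribonuclease gene Ear6 read -1.53 in knockdown and 1.63 in Ezh2-null GMPs, and Prg2, the eosinophil major basic protein, 3.77 and 5.42. Wild-type GMPs (1.06 and 5.65) and double mutant GMPs (1.82 and 5.41) were beside the Ezh2-null array, so the knockdown array was the low one. In LSK cells Ear6 differed by -0.07 and Prg2 by 0.44. The Ear genes are near-identical copies, and their probes may not tell them apart.

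Cma1, a mast cell chymase, was arranged otherwise in that list. It read -4.58 and -5.98 in LSK cells and GMPs of the knockdown and -2.38 and -2.74 in Ezh2-null cells. Wild-type (-5.94 and -5.99) and double mutant cells (-4.68 and -5.88) were low, so the Ezh2-null arrays were the high ones, at least 2.94-fold above the knockdown. The difference was 2.72 (SE 0.35), and no gene of the list passed (adjusted p = 0.155 for Cma1). The summed signal of the 20 genes was 114.2 in knockdown and 180.2 in Ezh2-null GMPs, and 26.2 and 21.9 in LSK cells, with 18 to 20 of them above background on each array.

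**Figure D5:**
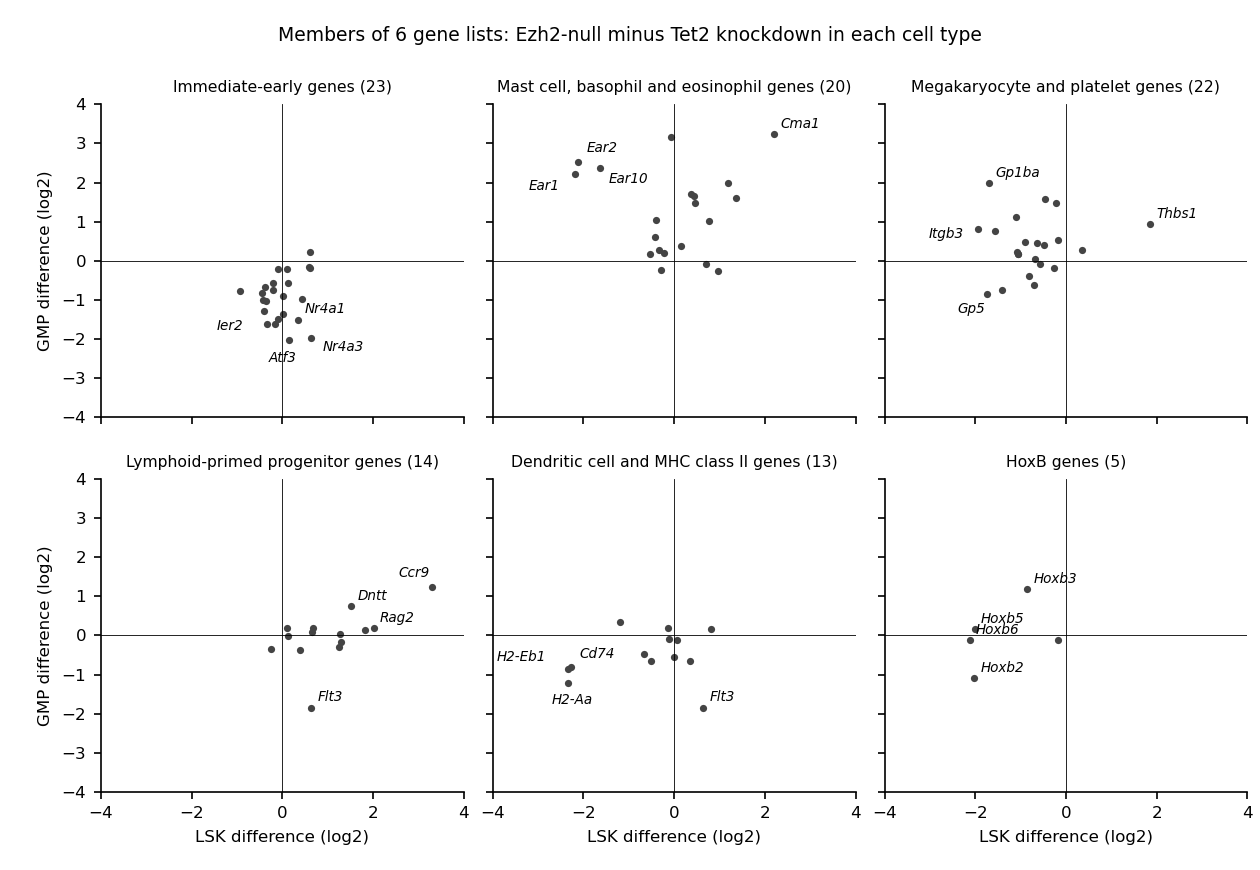
Members of 6 gene lists, 1 point per tested gene, by their difference in LSK cells (x axis, log2, Ezh2-null minus Tet2 knockdown) and in GMPs (y axis, log2). Immediate-early genes lie below 0 in GMPs (22 of 23), megakaryocyte genes left of 0 in LSK cells (20 of 22), and lymphoid genes right of 0 in LSK cells (13 of 14); the labelled genes have the largest sums of both absolute differences.

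Immediate-early genes, which cells switch on within minutes of a stimulus or of handling, were higher in the knockdown in GMPs. Of 23 tested, 22 were lower in Ezh2-null GMPs and 10 at least 2-fold lower, against 1.28% of all genes tested, with a median of -0.92; in LSK cells 12 were lower, with a median of -0.09. The stress factor gene Atf3 read 4.50 in knockdown and 2.48 in Ezh2-null GMPs, and Ier2 3.06 and 1.45. The knockdown GMP array was the highest of the 4 genotypes for both, above wild-type (2.55 and 1.97) and double mutant GMPs (1.82 and 1.49). Summed over the list, the signal was 1386.1 in knockdown and 796.7 in Ezh2-null GMPs, and 2391.5 and 2131.5 in LSK cells.

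Inflammatory genes were also mostly higher on the knockdown than on the Ezh2-null GMP array, where 2 of 19 were higher in Ezh2-null cells. Ccl2, a chemokine that draws monocytes, read 0.56 in LSK cells and 2.46 in GMPs of the knockdown and -0.90 and 0.51 in Ezh2-null cells. It was highest in the knockdown in both cell types, beside -1.79 and 0.43 in wild-type and -1.15 and 0.53 in double mutant cells. The difference of -1.70 (SE 0.22) did not pass in limma (adjusted p = 0.155), but did with normexp (0.0232) and with the trend and robust options (0.0442). Of 19 inflammatory genes 12 were lower in Ezh2-null cells, with a median of -0.68 in GMPs and -0.01 in LSK cells, and of 13 heat shock genes 9 were lower, with 5 higher in Ezh2-null GMPs, 2 at least 2-fold lower there and a GMP median of -0.19. Hspa1a, the inducible Hsp70, read 3.81 in knockdown and 1.18 in Ezh2-null GMPs, beside -1.15 in wild-type and -1.02 in double mutant GMPs. The part of the immediate-early signal in these and in the other GMP differences was not tested.

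Interferon response genes gave no common direction. Of 34 tested 22 were higher and 12 lower in Ezh2-null cells, with a median of -0.14 in LSK cells but 0.31 in GMPs. Ifi44 read 0.84 and -4.06 in LSK cells and GMPs of the knockdown and 1.37 and -2.56 in Ezh2-null cells, whereas the guanylate-binding protein gene Gbp2 read 3.15 and 0.68 against 2.52 and -0.61. Monocyte and macrophage genes were lower in 12 of 15, with a median of -0.28 and the F4/80 gene Adgre1 at -0.88 (SE 0.21). Late neutrophil genes were lower in 10 of 15 (median -0.12) and granulocyte-macrophage progenitor genes in 17 of 24 (median -0.06). None of these genes passed. Of all 12921 genes tested 7014 were lower, with a median of -0.03.

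Within single cell types, differences have no replicate and no test. In LSK cells 625 genes (4.84%) were at least 2-fold apart, 366 higher in Ezh2-null cells (2.83%) and 259 lower (2%). In GMPs 611 genes (4.73%) were, 445 of them higher (3.44%) and 166 lower (1.28%). The direction was shared by both cell types for 63% of all genes tested, and 26 genes (0.201%) were at least 2-fold apart in opposite directions. The genes with the largest LSK gaps and under 2-fold in GMPs included germ cell genes. Stag3, a cohesin of meiosis, read -5.78 in knockdown and -2.35 in Ezh2-null LSK cells, at least 3.24-fold higher, and Ddx4, the germ cell helicase, -0.51 and 2.68. Wild-type LSK cells (-5.96 and -0.72) lay with the knockdown and double mutant LSK cells (-2.77 and 1.505) nearer the Ezh2-null cells. The interleukin-18 receptor gene Il18r1 (3.10), the fatty acid transporter gene Slc27a2 (3.03), Fgf13 (2.90) and Mrvi1 (2.87) had LSK differences of like size. Lower in Ezh2-null LSK cells were Bcar3 (at least 5.16-fold) and the stress gene Nupr1 (1.70 in the knockdown, -2.29 in Ezh2-null). The cytokine gene Il4 (-0.28 and -3.12) was lower as well. Rph3al, Rtn4rl1 and Prr15 had LSK differences of -2.52, -2.50 and -2.44. Rph3al and Rtn4rl1 were not above background in Ezh2-null LSK cells, with gaps there of at least 3.3-fold and 2.48-fold.

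In GMPs the genes with the largest gaps and under 2-fold in LSK cells included Rbp4, the plasma carrier of retinol, which read -3.36 in the knockdown and 1.11 in Ezh2-null cells. Bex4 read -0.98 against 2.70, and the double mutant array read 0.15 for Rbp4 and 2.60 for Bex4, near the Ezh2-null array. Tmem121, at least 11.6-fold, Hdgfl3, at least 6.29-fold, Kifc2, at least 3.54-fold, and Raver2, at least 3.33-fold, were higher against a knockdown array not above background. Lower in Ezh2-null GMPs were the lymphotactin gene Xcl1 (-0.77 in the knockdown and -6.17 in Ezh2-null cells) and the Notch target Hey1 (-2.33 and -5.75). Neither was above background in Ezh2-null GMPs, so the gaps were at least 9.62-fold and 3.26-fold. Fam71a (0.28 against -3.12) and Osbpl10 (0.35 against -2.58) were lower too. For these 4 genes the knockdown was the highest of the 4 genotypes in GMPs: wild-type and double mutant GMPs read -6.31 and -6.20 for Xcl1, and -6.003 and -5.96 for Hey1. Pcdhb16 (-2.71, at least 1.43-fold) and Hspa1a (-2.64) completed the 6 lower GMP genes.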

How the data were processed

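Per the labels' protocols, total RNA was amplified with spike-in controls and labelled with Cy3. Per the file headers, the deposited intensities were made with Feature Extraction 10.7.1.1, which also gave the deposited flags for control spots, outliers, saturation and signal well above background (unit other). The authors' value table holds the same intensity at all 62976 spots of each array. Saturated gene spots numbered 0.

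From these, log2 processed signal minus each array's log2 75th percentile over gene spots was computed, spots of a probe were averaged, and probes were named by RefSeq accession from a GRCm38.p6 gene table, used for names only because the headers name build mm9. Of 55681 probes 26762 had 1 symbol, 0 had several and 28919 had none; 97.85% of NM and NR accessions matched. Each gene was represented by its brightest probe (mean of the 4 single mutant arrays), if well above background on at least 2 of them and not an outlier on any array, which left 12921 genes.

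limma 3.58.1 (R 4.3.3; lmFit and eBayes, two-sided, Benjamini-Hochberg over all genes) fitted condition and cell type to the 8 arrays without disease, with 3 residual degrees of freedom. Single-pair differences were counted at 2-fold. On simulated data for this comparison over 12921 genes the fit recovered 38% of genes changed by a log2 difference of 1. It recovered 96% at 2 and 100% at 3, with 14 false calls. The simulated noise was normal, with limma's shrunken spreads and the same change in both cell types. These shares therefore do not give the power on the real arrays, where Rpl39l (4.16) and Bmpr1a (4.05) did not pass.

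Named genes were Tet2, Ezh2 and Bmpr1a; up to 10 per direction among those past the threshold, filled up with genes at least 2-fold apart in both cell types, ranked by the smaller difference; up to 6 per direction and cell type; up to 5 with opposite directions; and up to 4 members with the smallest p per list described, plus members whose role orders the text. Fewer than 4 were named for most lists, and predicted genes were not named; 1 gene is not reported here. The 34 lists held 634 names, 632 with a current symbol. The members and lists were chosen with earlier results of these data known.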

Additional observations from a re-analysis of the deposited data

Results flagged for a closer look

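In 5 named genes the difference between the single mutants (Ezh2-null minus Tet2 knockdown, log2) had opposite directions in LSK cells and GMPs, at least 2-fold in each by the measured signal; the difference between the cell types was not tested. Over all genes tested, 26 (0.201%) had this pattern. The eosinophil ribonuclease genes Rnase2a (-1.30 in LSK cells, 3.41 in GMPs) and Ear2 (-2.12 and 2.52), near-identical in sequence to other copies, were lower in Ezh2-null LSK cells and higher in Ezh2-null GMPs. Rnase2a read -0.50 and -1.06 in LSK cells and GMPs of the knockdown and -1.80 and 2.35 in Ezh2-null cells, and Ear2 0.47 and -0.04 against -1.64 and 2.48. The low GMP array was the knockdown, as wild-type and double mutant GMPs read 2.27 and 2.59 for Rnase2a and 3.18 and 2.78 for Ear2. Plxdc2, a plexin domain membrane protein gene, was -1.23 in LSK cells and 4.38 in GMPs, and the cilium gene Cfap45 -1.93 and 3.01. Cd83, an activation marker of dendritic and B cells, went the other way, with 2.45 in LSK cells and -2.16 in GMPs. It read -0.07 and -2.30 in LSK cells and GMPs of the knockdown and 2.38 and -4.45 in Ezh2-null cells. Plxdc2 and Cfap45 were not above background in knockdown GMPs, and Cd83 was not in Ezh2-null GMPs, so there their GMP gaps were at least 4.48-fold, 1.63-fold and 3.34-fold.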

How the results depend on the processing

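The count of genes past the threshold was 1 in limma and stayed 1 with quantile normalization, the authors' value table (equal by construction), the mean of all probes and all 12 arrays. It was 31 with normexp (25 higher), 3 with signals floored at the background limit, 12 with the trend and robust options (7 higher), and 0 with no filter, with all 4 arrays required above background, with probes and filter over the 12 arrays, and on the 4 single mutant arrays only (1470, 1148, 1278 and 1315 genes at an unadjusted p under 0.05). Leaving out 1 array gave 0 to 3 genes: 3 without the wild-type array of LSK cells or of GMPs (Ppm1e, Mrgpra2a and Jchain), and 0 without any 1 of the other 6, where 704 to 1712 genes had an unadjusted p under 0.05. An array left alone in its condition was assumed to vary like the others. Where a single mutant array was left out, its value was filled in from the cell type difference of the other genotypes. Wild-type and double mutant values thus enter those differences. Genes at least 2-fold apart in both cell types numbered 144, and 29 with normexp, 28 of them shared, or 69 with all 4 arrays above background; in LSK cells 625 became 181 and 329, and in GMPs 611 became 175 and 337. The share of higher genes among those apart in both ran from 71.0 to 79.3%. Bmpr1a had the same direction throughout and passed with the trend and robust options only (4.05, adjusted p = 0.0403). Without 1 array Ezh2 ran from -0.066 (Tet2 knockdown LSK array left out, adjusted p = 0.967) to 0.34. The cause of these changes was not tested. Counts of single-pair differences have no value without one of their arrays, and no such value is given. No paired analysis by replicate number was possible because each cell type and condition has 1 array; by cell type every fit is paired, and the fit on the 4 single mutant arrays is that of the 2 pairs alone. Normexp used the median spot signal. Dim probes limit the sizes, which near background are bounds under the main processing.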

Other observations

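p53 target genes, which respond to DNA damage and other stress, were mostly higher in Ezh2-null LSK cells: of 21 tested, 15 were higher there (median 0.36) and 9 were higher in GMPs (median -0.04). Fas, the death receptor gene, read -3.50 and -3.03 in LSK cells and GMPs of the knockdown and -2.84 and -1.79 in Ezh2-null cells. Perp, a membrane protein gene induced by p53, read 0.08 and -0.55 against 0.43 and 1.43, and double mutant GMPs (1.16) were near the Ezh2-null array. None of the 21 passed. Proliferation genes were higher in 25 of 35, with a median of 0.14, erythroid genes in 11 of 14 (median 0.14) and cyclin-dependent kinase inhibitor genes in 4 of 5 (median 0.03), with 0 calls in limma; at an unadjusted p under 0.05 they held 1, 2 and 0 genes. Haem synthesis and iron genes were lower in 12 of 18 (median -0.11) and haematopoietic oncogenes in 14 of 26 (median -0.03, 0.03 with quantile normalization). B-lymphoid genes were lower in 4 of 7 (-0.08) and T and NK cell genes in 10 of 15 (-0.12). Stromal and endothelial genes were higher in 6 of 9 (0.13). Of all 12921 genes tested 5907 were higher and 7014 lower.

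The diseased double mutant arrays, hybridised on other slides, were set beside the same genes. Of the 108 genes higher in Ezh2-null cells, the LSK array of mice with myelodysplastic/myeloproliferative disease lay nearer the Ezh2-null value for 78 and that of mice with refractory anaemia with excess blasts for 73, against 74 for the disease-free double mutant. In GMPs the numbers were 74 and 61, against 93. Over all genes tested the shares for the 4 diseased arrays ran from 46.6 to 59.7%, and those for the disease-free double mutant were 63.9% in LSK cells and 53.7% in GMPs. Slide and disease cannot be told apart here.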
